A study of Microtus ochrogaster with 23 samples.

Results

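Apba2 (RefSeq gene 101993252), also called Mint2, was examined for cytosine methylation in the hippocampal dentate gyrus of prairie voles (Microtus ochrogaster). The gene was selected on measured values: in the “Attacker” vs “Parental” comparison it holds a CpG whose methylation levels did not overlap between the groups. All values of “Attacker” vs “Parental” below are therefore a description and carry no p-value. The locus was taken as the gene span on MicOch1.0, chromosome 22, 28150921 to 28360094 (209174 bp), plus 5 kb on each side. It held 592 cytosines with reads in at least 1 vole, of 4051749 in the whole series (23 voles).

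The study measured DNA methylation by reduced representation bisulfite sequencing (RRBS), in which MspI cuts at CCGG and bisulfite converts unmethylated cytosines, so that reads concentrate in CpG-rich DNA. All 23 voles were adult and wild type, came from a laboratory breeding colony, and gave 1 library each from 100 ng of DNA. Every vole met an unfamiliar pup in a behavior test. Of the virgin males, kept in same-sex pairs, 6 attacked it and were then parted from it (“Attacker”), and 6 cared for it (“Parental”). The other groups were 5 pair-bonded males with a litter (“Father”) and 6 pair-bonded females with a litter (“Mother”). “Father” and “Mother” thus differ in sex, and the virgin males differ from “Father” in pairing and housing as well as in parenthood, which cannot be told apart. The dentate gyrus was profiled as bulk tissue, so a shift in the share of a cell type and a shift in methylation inside cells cannot be told apart either. Methylation counts hold no expression of marker genes against which the tissue label could be checked.

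Apba2 encodes a neuronal adaptor of the Mint (X11) family. Its protein has PDZ domains and a phosphotyrosine-binding domain, binds the cytoplasmic tail of the amyloid precursor protein, and acts at the presynaptic terminal, where synaptic vesicles fuse. In vertebrate genomes most CpGs inside gene bodies are methylated, while dense CpG islands, often at promoters, are mostly unmethylated.

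Each library held 64896224 to 129376223 cytosine calls, where a call is 1 read over 1 cytosine. The share of methylated calls in the whole library set 1 animal apart: Attacker 6 had 38.7%, against 24.7% in Attacker 5, the next highest, and Attacker 1 had the lowest share at 8.34%. Group medians were 16.5% in “Attacker”, 15.7% in “Parental”, 12.3% in “Father” and 14% in “Mother”. The same 2 animals were at the ends for Apba2, with 4.52% of calls in the gene methylated in Attacker 1 and 24.5% in Attacker 6. DMC counts of the gene are given with and without Attacker 6, but no fit of a named cytosine is given without it. The share also tended to rise with the replicate number, and replicate 1 was the lowest of its group in all 4 groups. It went from 10.4% in Parental 1 to 20.4% in Parental 6, and from 10.6% in Father 1 to 21.9% in Father 4. In “Mother” it went from 10.6% in animal 1 to 14.5% in animal 6. The labels do not say what the replicate numbers stand for. The part of the library-wide level in the differences at single cytosines was not tested.

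Coverage of the gene was uneven. Each animal had reads at 250 to 323 of the 592 cytosines (median 282) and between 5006 and 12376 calls. Of the cytosines, 119 (20.1%) were read in 1 animal, 259 in at least 12, and 116 in all 23. Only 50 (8.45%) had at least 10 reads in every animal, against 10.7% of all cytosines in the series. Of the 5016 values with at least 10 reads, 77.1% were at 0, 12.9% were at 100% and 5.64% lay between 20% and 80%. In the whole series these shares were 71.6%, 13.7% and 8.19%.

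The window also touches a neighbour. Fam189a1 ends 273 bp before Apba2, and 11 of the 592 cytosines lie inside its span. Mcee begins 41149 bp beyond the other end. In all, 525 cytosines lie in the Apba2 span and 67 in the flanks. The gene table used here gives spans without strand or exons, so positions are written as bp from the lower-coordinate end of the span (+105297 is 105297 bp in) and exons and introns are not told apart. The cytosine nearest the window's lower border on the inside lay at -4846 bp (47 of 63 reads methylated in 3 animals), and the nearest outside at -5108 bp (27 of 27 reads in 2 animals). At the upper border the last cytosine inside lay 3315 bp past the gene (15 of 15 reads in 1 animal), and the first outside lay at 5338 bp (40 of 71 reads in 5 animals).

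The CpG on which Apba2 was chosen lies at 28256218 (+105297), near the middle of the gene span. It was read in 4 “Attacker” animals and methylated in every read: 19 of 19 in Attacker 2, 17 of 17 in Attacker 3, 17 of 17 in Attacker 5 and 23 of 23 in Attacker 6. The lowest bound of a 95% Wilson interval among these animals was 81.6%. In “Parental” the same CpG had 5 of 27 reads methylated in animal 1 (18.5%, interval 8.18 to 36.7%), 0 of 11 in animal 2, 0 of 28 in animal 3, 1 of 18 in animal 4 and 0 of 29 in animal 6. The “Attacker” animals with reads were thus all at 100% and the “Parental” animals with reads all at or below 18.5% (mean 4.81% ± 8.03, SD, n = 5). Attackers 1 and 4 and Parental 5 had no reads there. Without Attacker 6, whose library stands apart, Attackers 2, 3 and 5 remained at 100%. The fitted difference was 85.0 percentage points (SE 13.2). Of 1266207 cytosines in the series that had 10 or more reads in at least 4 animals of both groups, 676 (0.0534%) had groups that did not overlap. In Apba2 only the CpG by which the gene was picked met this.

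The parents were read at the same CpG and did not enter the choice. “Father” had 0 of 58 reads methylated in animal 1, 0 of 7 in animal 2, 11 of 35 in animal 3 (31.4%, interval 18.6 to 48.0%) and 0 of 9 in animal 5, with none in animal 4. A count of 0 allows a level of up to 5.17% in Father 1, but up to 42.9% in Father 2 and 33.3% in Father 5. “Mother” had 0 of 32, 0 of 25, 0 of 15 and 0 of 12 reads methylated in animals 1, 2, 3 and 6, against 13 of 38 (34.2%) in Mother 4 and 18 of 34 (52.9%) in Mother 5. Parents were therefore mostly at 0, with single animals at intermediate levels, and no parent reached the “Attacker” values. “Father” (7.86% ± 15.7, SD, n = 4) and “Mother” (14.5% ± 23.3, SD, n = 6) overlapped: the difference was -6.67 points (exact permutation test, two-sided, p = 0.667, smallest possible p 0.00952). Without Mother 5 it was 1.02 points, the opposite direction. In “Attacker” vs “Father” the fitted difference was 81.0 points (SE 17), given without a test since “Attacker” entered the choice.

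The nearest cytosine, 11 bp away at +105286, did not share the “Attacker” pattern. There Attacker 2 had 0 of 19 reads methylated, Attacker 3 had 11 of 18, Attacker 5 had 0 of 17 and Attacker 6 had 10 of 23 (mean 26.1% ± 31.0, SD, n = 4). Full methylation at +105297 thus sat beside levels from 0 to 61.1% at the neighbour in the same animals. In all 15 “Parental”, “Father” and “Mother” animals with reads, by contrast, the 2 cytosines had identical read numbers, methylated and total. In “Attacker” the read number was the same in 3 of 4 animals and the methylated number in 0 of 4. The cytosine on the opposite strand of the CpG was not read.

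Over the short segment that holds it (+105140, 4 cytosines over 158 bp, calls pooled per animal), the lowest, median and highest levels were 50%, 72.2% and 100% in “Attacker” (n = 6), 0, 8.11% and 18.5% in “Parental” (n = 5), 0, 21.4% and 48.6% in “Father” (n = 4) and 0, 28.6% and 52.9% in “Mother” (n = 6). The values of Attackers 1 and 4 come from 1 other cytosine of the segment, at +105158, with 24 of 33 and 17 of 17 reads methylated. At that cytosine 50 of 59 reads were methylated over 3 “Attacker” animals, 1 of 16 over 2 “Parental”, 22 of 22 over 2 “Father” and 43 of 50 over 4 “Mother”. It was therefore high in the parents as well as in “Attacker”. “Father” vs “Mother” differed by -4.04 points over the segment (limma, Benjamini-Hochberg adjusted p = 0.979).

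Segments of high, intermediate and low methylation alternated along the gene, and a nearly unmethylated stretch lay near its upper end. Cytosines closer than 200 bp to the next were joined into segments of at least 4, which gave 24 segments with 408 cytosines. Of these, 10 segments (93 cytosines) had a median level over animals of at least 60% (66.7 to 92.8%), 8 (61 cytosines) were intermediate (17.1 to 53%), and 6 (254 cytosines) had a median under 10%. Most of the low cytosines belong to the dense stretch described next.

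**Figure D1:**
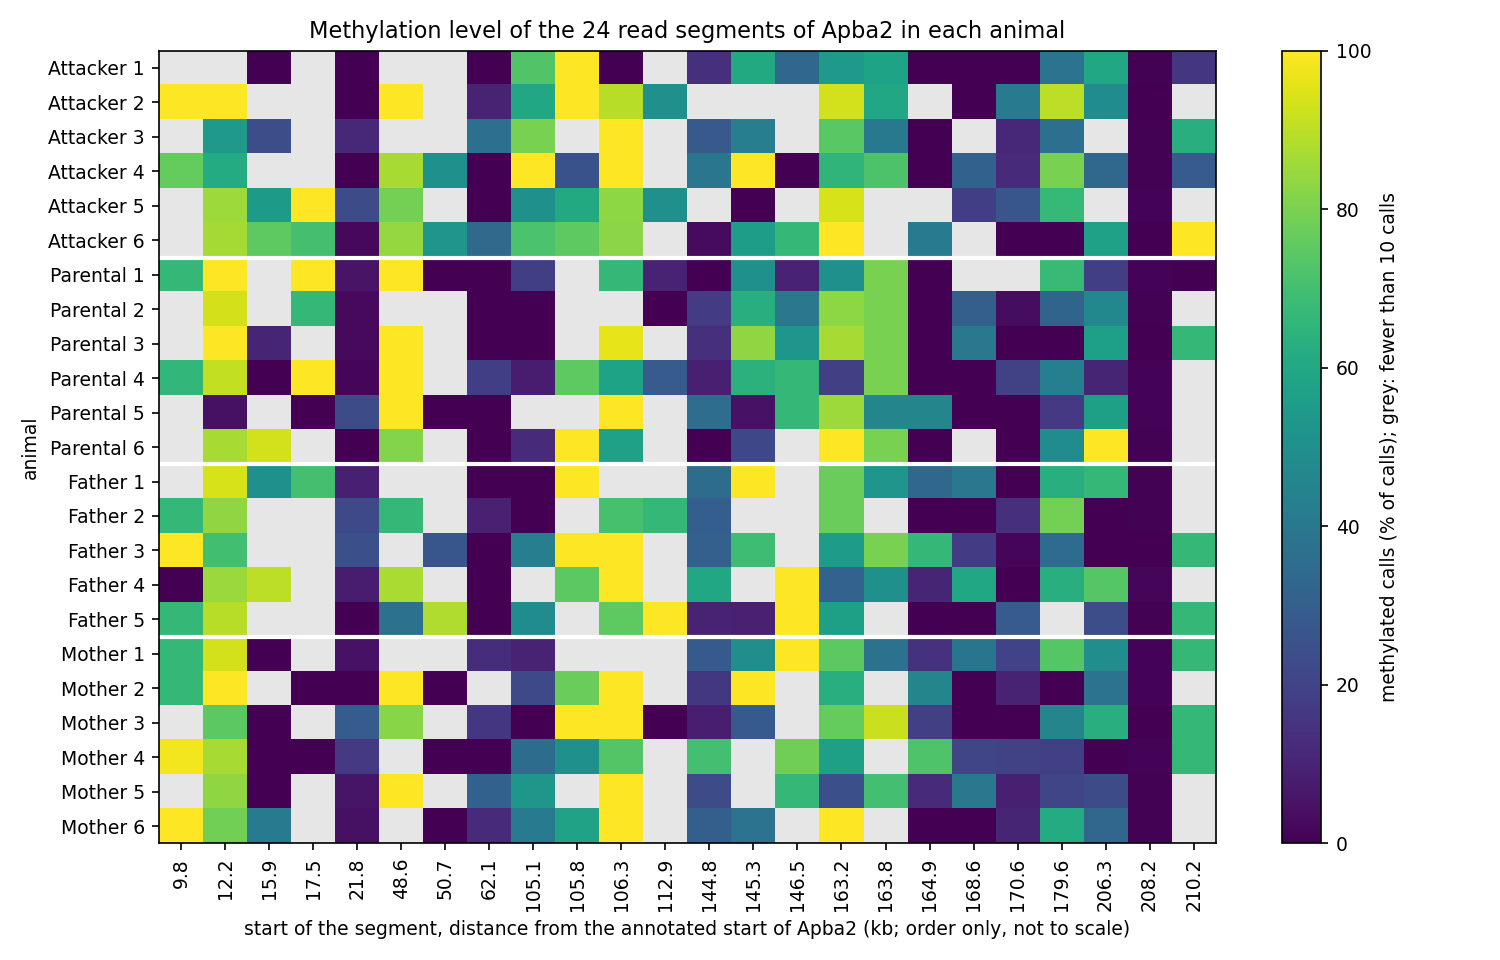
Methylation level in percent (colour scale) of the 24 segments of Apba2 (one axis, ordered along the gene) in each of the 23 voles, grouped as “Attacker”, “Parental”, “Father” and “Mother”. Grey marks animals with fewer than 10 calls; the segment at +208155 stays between 0.272% and 1.62% in all animals, while several segments inside the gene span most of the scale within a group.

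The dense stretch runs from 28359076 to 28360476 (1401 bp) and reaches 382 bp past the gene span. It held 228 cytosines, 38.5% of those of the locus, and 154809 calls, 77.4% of the total. Only 0.665% of these calls were methylated, and per animal the level ran from 0.272% to 1.62% with a median of 0.64%. The remaining 364 cytosines took 45174 calls, of which 46.0% were methylated. Per animal this rest of the gene lay at 28.9%, 52.0% and 67.6% in “Attacker” (lowest, median and highest), 27.2%, 40.7% and 59.9% in “Parental”, 36.7%, 45.2% and 64.5% in “Father” and 36.3%, 43.4% and 55.7% in “Mother”. All 4 ranges overlapped. Means were 50.7% ± 14.1, 42.3% ± 10.6, 48.1% ± 10.8 and 44.1% ± 6.35 (SD, n = 6, 6, 5 and 6). These pooled levels depend on which cytosines each animal happened to cover.

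Several segments inside the gene were high in nearly every animal. The segment at +12212 (29 cytosines over 689 bp) had medians of 85.5% in “Attacker” (53.7 to 100%, n = 5), 92.3% in “Parental” (4.63 to 100%, n = 6), 85% in “Father” (69.7 to 94.1%) and 85% in “Mother” (74.6 to 100%). At +48631 (11 cytosines) the means were 87.5% ± 8.94 (SD, n = 4) in “Attacker”, 96.3% ± 8.31 (n = 5) in “Parental” and 94.1% ± 10.3 (n = 3) in “Mother”, while 3 “Father” animals had 37.5%, 66.7% and 87.2%. At +106304, about 1 kb past the CpG that chose the gene, medians were 86.2% in “Attacker” (0 to 100%), 66.7% in “Parental” (57.1 to 100%, n = 5), 87.5% in “Father” (71.1 to 100%, n = 4) and 100% in “Mother” (73.3 to 100%, n = 5). High medians were thus common to the groups, with single animals far below them.

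Other segments were variable in every group. At +179550 (5 cytosines) levels ran from 0 to 90% in “Attacker” (median 52.5%), 0 to 67.2% in “Parental” (37.5%), 35 to 79.1% in “Father” (63%, n = 4) and 0 to 73.7% in “Mother” (33.2%). At +206252 (15 cytosines, about 2 kb before the dense stretch) they ran from 33.3 to 59.5% in “Attacker” (n = 4), 10.3 to 100% in “Parental”, 0 to 73.6% in “Father” and 0 to 63.1% in “Mother”. The segment at +163231 (6 cytosines) covered 18.8 to 100% over all 23 animals (median 74.8%), and that at +21805 (8 cytosines) only 0 to 29% (median 5.06%).

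Segment levels were tested between groups with limma over all segments of the series with at least 4 animals in both groups, and adjusted by Benjamini-Hochberg. No segment of Apba2 passed in any tested comparison. In “Attacker” vs “Father” 12 segments were tested away from the CpG that chose the gene. Of these, 0 had an unadjusted p under 0.05, beside 4719 of 97357 segments of the series. The lowest adjusted p was 0.971 (0.00411% of all segments called after adjustment). In “Parental” vs “Father” 1 of 12 had an unadjusted p under 0.05, beside 4615 of 97205 in the series. At this segment, +144834, “Parental” had 12.6% ± 13.4 and “Father” 33.1% ± 17.9 (SD, limma adjusted p = 0.965, 0.00103% of all segments called). In “Father” vs “Mother” it was 1 of 14, beside 5204 of 94462 in the series. At this segment, +62144 (4 cytosines over 46 bp), “Father” had 1.84% ± 4.11 (SD, n = 5, lowest 0, highest 9.18%). “Mother” had 14.4% ± 11.1 (SD, n = 5, 0 to 31.1%). The ranges overlapped, and limma gave an adjusted p of 0.828 (0.237% of all segments called). With so few segments, nothing is read from a count of 1. In “Attacker” vs “Parental”, where 0.000928% of all segments were called, none of the Apba2 segments was called.

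The mean level over the 50 fully covered cytosines (10 or more reads in all animals), 49 of which lie in the dense stretch, averaged 0.731% to 1.05% in the groups. “Attacker” had 0.731% ± 0.413 (0.145 to 1.30%, n = 6), “Parental” 0.751% ± 0.248 (0.415 to 1.04%, n = 6) and “Mother” 1.05% ± 0.404 (0.308 to 1.45%, n = 6). The 5 “Father” animals had 1.57%, 0, 0.780%, 0.242% and 1.13% (mean 0.745% ± 0.640). All 4 groups overlapped. “Father” vs “Mother” differed by -0.301 points (limma, adjusted p = 0.988), “Parental” vs “Father” by 0.00614 points (adjusted p = 0.998) and “Attacker” vs “Father” by -0.0136 points (adjusted p = 0.99). On the arcsine scale of the fit the last difference had the opposite sign. “Attacker” minus “Parental” was -0.0197 points. The 1 cytosine outside the dense stretch, at +175673, weighs on these means: over the other 49 they were 0.318% ± 0.365 in “Attacker”, 0.763% ± 0.249 in “Parental”, 0.467% ± 0.491 in “Father” and 0.947% ± 0.392 in “Mother”. Of 6815 genes fitted this way, the share called was 0.132% in “Father” vs “Mother” and 0% in the other comparisons (by limma, 346 to 360 genes in each of these had an unadjusted p under 0.05). Apba2 was not called in any.

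The dense stretch holds 2 clusters of such cytosines. The larger (28359394 to 28359629, 39 cytosines) had 0.40% ± 0.458 in “Attacker”, 0.705% ± 0.451 in “Parental” and 0.908% ± 0.623 in “Mother” (SD, n = 6). The “Father” animals had 1.61%, 0, 0.359%, 0 and 0.358%, so that Father 1 alone lay above 0.4%. The smaller (28359857 to 28359906, 10 cytosines) was at 0 in all 6 “Attacker” animals. There “Parental” had 0.986% ± 0.925 (0 to 1.92%), “Father” 0.473% ± 0.647 (3 of 5 animals at 0) and “Mother” 1.10% ± 1.56 (0 to 3.85%). Animals at 0 occurred in every group, so the groups overlapped. Neither cluster was called in any comparison, and in the 3 comparisons given with a test neither had an unadjusted limma p under 0.05. In “Father” vs “Mother” the differences were -0.443 points (limma, adjusted p = 0.925) and -0.624 points (adjusted p = 0.961), and in “Attacker” vs “Father” the smaller cluster differed by -0.473 points (adjusted p = 0.939). Among 25623 clusters of the series the share called was 0.00781% in “Attacker” vs “Parental”, 0.203% in “Father” vs “Mother” and 0% in the other comparisons (unadjusted p under 0.05 in 1211 clusters for “Attacker” vs “Father” and 1194 for “Parental” vs “Father”).

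**Figure D2:**
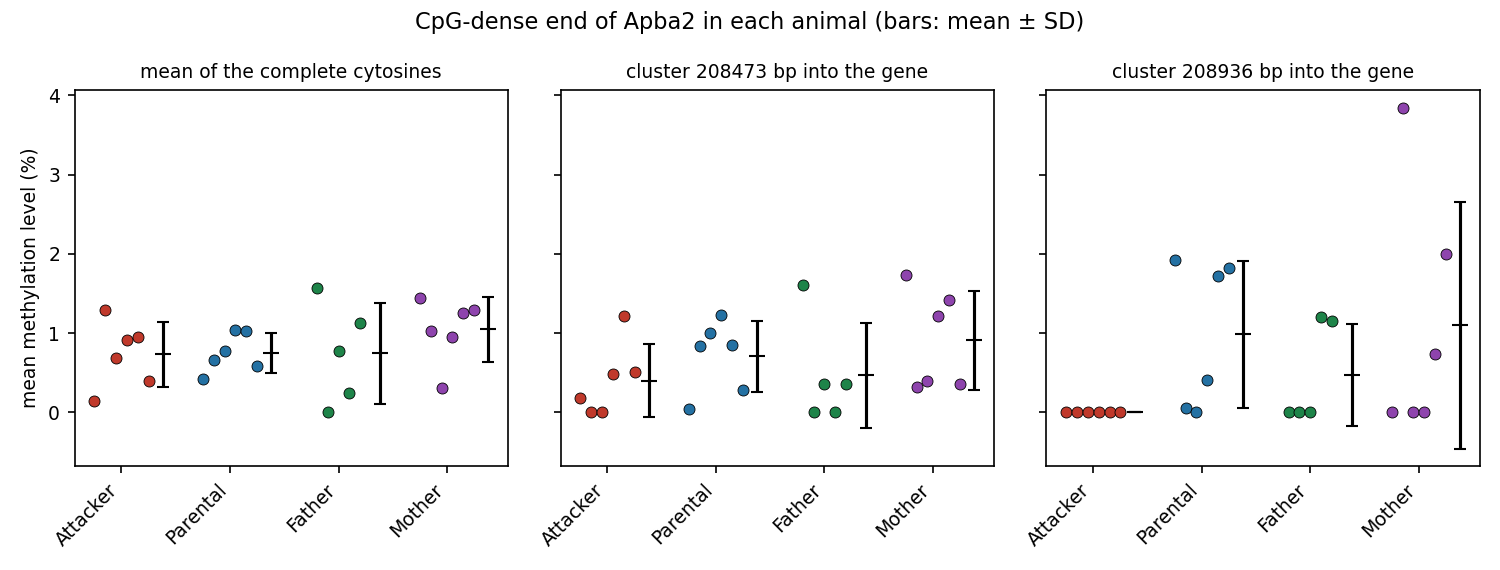
Mean methylation level in percent of the 50 fully covered cytosines of Apba2 and of its 2 clusters in the dense stretch, by group; points are animals, and the line and bar are the mean and SD. All groups overlap between 0 and 4%, and the 6 “Attacker” animals are at 0 in the smaller cluster.

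The 3 fully covered cytosines with the largest spread over animals each had a few animals away from 0. At 28326594 (+175673), the only one outside the dense stretch, Attackers 2, 3 and 4 had 64.9%, 34.3% and 26.7% (24 of 37, 37 of 108 and 12 of 45 reads), Fathers 1, 3 and 5 had 15.7%, 25% and 31.0%, and Mothers 1 and 6 had 4.8% and 30.6%. “Parental” was at 0 in 5 animals and at 1.01% (1 of 99 reads) in Parental 5. In all, 14 animals were at 0, and every group held such an animal. At +208669 only Attacker 5 had methylated reads (9 of 19, 47.4%), and at +208661 only Mother 5 (16 of 40, 40%), with the other 22 animals at 0.

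Single cytosines were tested with a re-implementation of the DSS Wald test, and a differentially methylated cytosine (DMC) was one whose score, the fitted probability that the groups differ by less than 15 percentage points, lay under 0.05. Hypermethylated means higher in the first-named group. In “Attacker” vs “Father” 12 of 379 tested cytosines of Apba2 were DMCs (3.17%; 5 hypermethylated and 7 hypomethylated), against 0.999% of all cytosines tested (0.611% hypermethylated, 0.388% hypomethylated). The 12 include the CpG that chose the gene, in whose choice “Attacker” entered. In “Parental” vs “Father” 14 of 369 were DMCs (3.79%; 6 and 8), against 1.23% (0.656% and 0.575%). In “Father” vs “Mother” 7 of 387 were DMCs (1.81%; 5 and 2), against 1.24% (0.741% and 0.497%). In the comparison behind the choice of the gene, “Attacker” vs “Parental”, 6 of 390 were DMCs, the choosing CpG among them, with a background of 0.822% (0.478% and 0.344%) from which nothing is read. All 6 were hypermethylated, but the split was 4 hypermethylated and 1 hypomethylated without Attacker 6, 5 and 3 without Attacker 5, and 5 and 5 without Parental 5. Over all cytosines 13178 of 22674 DMCs were hypermethylated, and 13062 of 30048 without Attacker 6. These comparisons share groups, and “Father” enters 3 of the 4.

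After Benjamini-Hochberg adjustment over all cytosines, 2 were left in “Attacker” vs “Father” (background 0.0491%), 4 in “Parental” vs “Father” (0.0986%), 2 in “Father” vs “Mother” (0.101%) and 1 in “Attacker” vs “Parental” (0.0293%). The last, and 1 of the 2 in “Attacker” vs “Father”, is the CpG that chose the gene, so these 2 counts are a description. Without Attacker 6 the DMC counts were 12 in “Attacker” vs “Father” (4 hypermethylated and 8 hypomethylated) and 5 in “Attacker” vs “Parental”. Without Parental 5 the latter was 10. In “Father” vs “Mother” the 7 DMCs became 13 without Father 2, Mother 2 or Mother 5, 12 without Father 3 and 11 without Mother 4 or Mother 6, and the 2 adjusted DMCs became 1 without Father 1. In “Attacker” vs “Father” the adjusted count was 1 without Attacker 3 or Attacker 4 and 4 without Father 4. Over all cytosines every omission raised the counts. In “Father” vs “Mother” DMCs went from 32349 to between 37986 and 44059. In “Attacker” vs “Father” adjusted DMCs went from 1310 to between 1607 and 4821. These changes in the gene's counts are therefore not read as particular to Apba2.

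**Figure D3:**
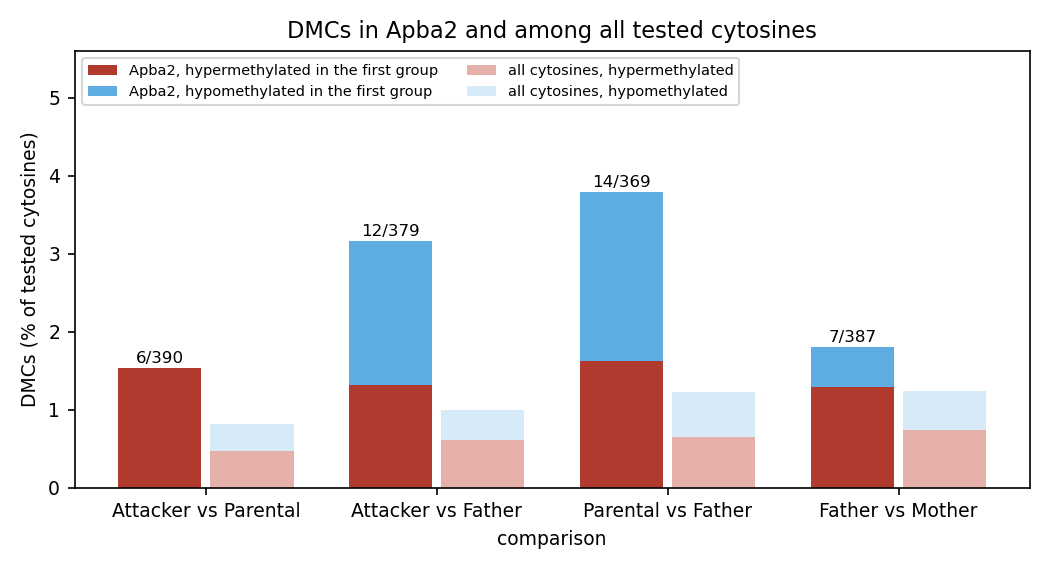
Share of tested cytosines that were DMCs, in percent, in Apba2 and over all cytosines of the series for the 4 comparisons; bars start at 0 and stack hypermethylated and hypomethylated cytosines. The Apba2 share runs from 1.54% to 3.79% and the background from 0.822% to 1.24%, and in both “Attacker” comparisons the Apba2 bar includes the CpG that chose the gene.

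Most of these calls rest on few animals. The 39 calls fell on 25 positions, and in 35 of the 39 the smaller group had reads in 1 or 2 animals. None lay in the dense stretch. Among cytosines where 4 animals of both groups had 10 or more reads, the same DSS test called 0 of 144 in “Father” vs “Mother”. It likewise called 0 when either virgin group was set against “Father”, and in all 3 comparisons 0 had an unadjusted p under 0.05. Such calls were rare in the series as well. The test called 739 of 1183211 well-covered cytosines in “Father” vs “Mother”, 541 of 1159332 in “Attacker” vs “Father” and 552 of 1187448 in “Parental” vs “Father”. A count of 0 in the gene is therefore not read as a result. Of the positions, 4 lay within 2 kb of the CpG that chose the gene. The DMCs with the smallest Wald p are described by position, with the reads of every animal that had any.

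The DMC with the lowest p in “Father” vs “Mother” was 28256758 (+105837), 540 bp from the CpG that chose the gene. Its reads were all methylated in Fathers 1, 3 and 4 (16 of 16, 20 of 20 and 14 of 14). In “Mother” 0 of 2, 2 of 21, 0 of 19 and 0 of 29 were methylated in animals 1, 2, 4 and 6. The groups did not overlap, and the fitted difference was 86.0 points (SE 14.2; DSS Wald test, Benjamini-Hochberg adjusted p = 1.5e-05). An exact permutation test of the animals' levels gave p = 0.0571 (two-sided, n = 3 and 4), the smallest it can give. In the virgin males levels were mixed, with 7 of 7 reads methylated in Attacker 1 but 0 of 22, 0 of 21 and 0 of 16 in Attackers 4, 5 and 6, and with 14 of 32, 0 of 1 and 14 of 14 in Parentals 4, 5 and 6.

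At +206435, in the variable segment before the dense stretch, “Father” was the low group in 2 comparisons that share it. Fathers 1 and 4 had 0 of 12 and 0 of 5 reads methylated. Mothers 1, 3, 5 and 6 had 16 of 16, 14 of 14, 7 of 7 and 1 of 1, and Parentals 1, 2 and 3 had 9 of 9, 9 of 9 and 12 of 12. The fitted difference was -85.3 points (SE 16.6, DSS adjusted p = 0.00128) in “Father” vs “Mother” and 84.7 points (SE 17.3, adjusted p = 0.00341) in “Parental” vs “Father”. Exact permutation tests gave p = 0.133 (n = 2 and 4) and p = 0.2 (n = 3 and 2), the smallest possible. Attackers 1 and 2 had 9 of 9 and 9 of 21. Over the whole segment (+206252) Fathers 1 and 4 had the highest “Father” levels, 66.7% and 73.6%. Fathers 2 and 3 were at 0 there and Father 5 was at 23.8%. Over that segment “Father” vs “Mother” differed by -1.53 points (limma, adjusted p = 0.993).

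At +206252, 183 bp away, Fathers 2 and 5 had 0 of 20 each. Parentals 1 and 5 had 16 of 17 and 21 of 21 reads methylated there, and the fitted difference was 83.9 points (SE 16.8, DSS adjusted p = 0.00207; exact permutation p = 0.333 with n = 2 and 2, the smallest possible). Mothers 1, 5 and 6 had 8 of 29, 0 of 18 and 13 of 23, and Attackers 2 and 6 had 1 of 1 and 16 of 17. Different “Father” animals were read at the 2 cytosines.

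The reverse was seen at +112928 and +146491, where “Father” was high. At +112928 Fathers 2 and 5 had 19 of 19 and 20 of 20 reads methylated, and Parentals 2, 3, 4 and 5 had 0 of 8, 0 of 2, 0 of 3 and 0 of 2 (fitted difference -83.1 points, SE 19.1, DSS adjusted p = 0.0230). At +146491 Fathers 4 and 5 had 10 of 10 and 32 of 32, and Parentals 1 to 5 had 0 of 24, 0 of 10, 0 of 2, 0 of 27 and 0 of 51 (-84.8 points, SE 17.9, adjusted p = 0.00625). Attackers 1 and 6 also had 0 of 6 and 0 of 16 at +146491 (-81.5 points in “Attacker” vs “Father”, SE 21.3), but there the adjusted p was 0.137. “Mother” was read in 3 animals at both positions, with 7 of 20, 0 of 50 and 2 of 2 at +146491 and 0 of 3, 0 of 2 and 3 of 3 at +112928. Exact permutation tests of “Parental” vs “Father” gave p = 0.133 (n = 4 and 2) and p = 0.0952 (n = 5 and 2), the smallest possible.

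At +144579 “Attacker” was the high group. Attackers 3 and 4 had 43 of 54 and 29 of 33 reads methylated, and all 5 “Father” animals had 0 (of 6, 8, 99, 30 and 33 reads). The fitted difference was 76.0 points (SE 16, DSS adjusted p = 0.00866), and the exact permutation test gave p = 0.0952 (n = 2 and 5), the smallest possible. “Mother” was at 0 in its 4 animals with reads (8, 74, 14 and 4 reads), and Parentals 1, 2, 4 and 5 were at 0, while Parental 3 had 14 of 64 and Parental 6 had 10 of 17. The high level rests on 2 “Attacker” animals, since the other “Attacker” animals had no reads there. The other adjusted DMC of “Attacker” vs “Father” is the CpG that chose the gene.

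**Figure D4:**
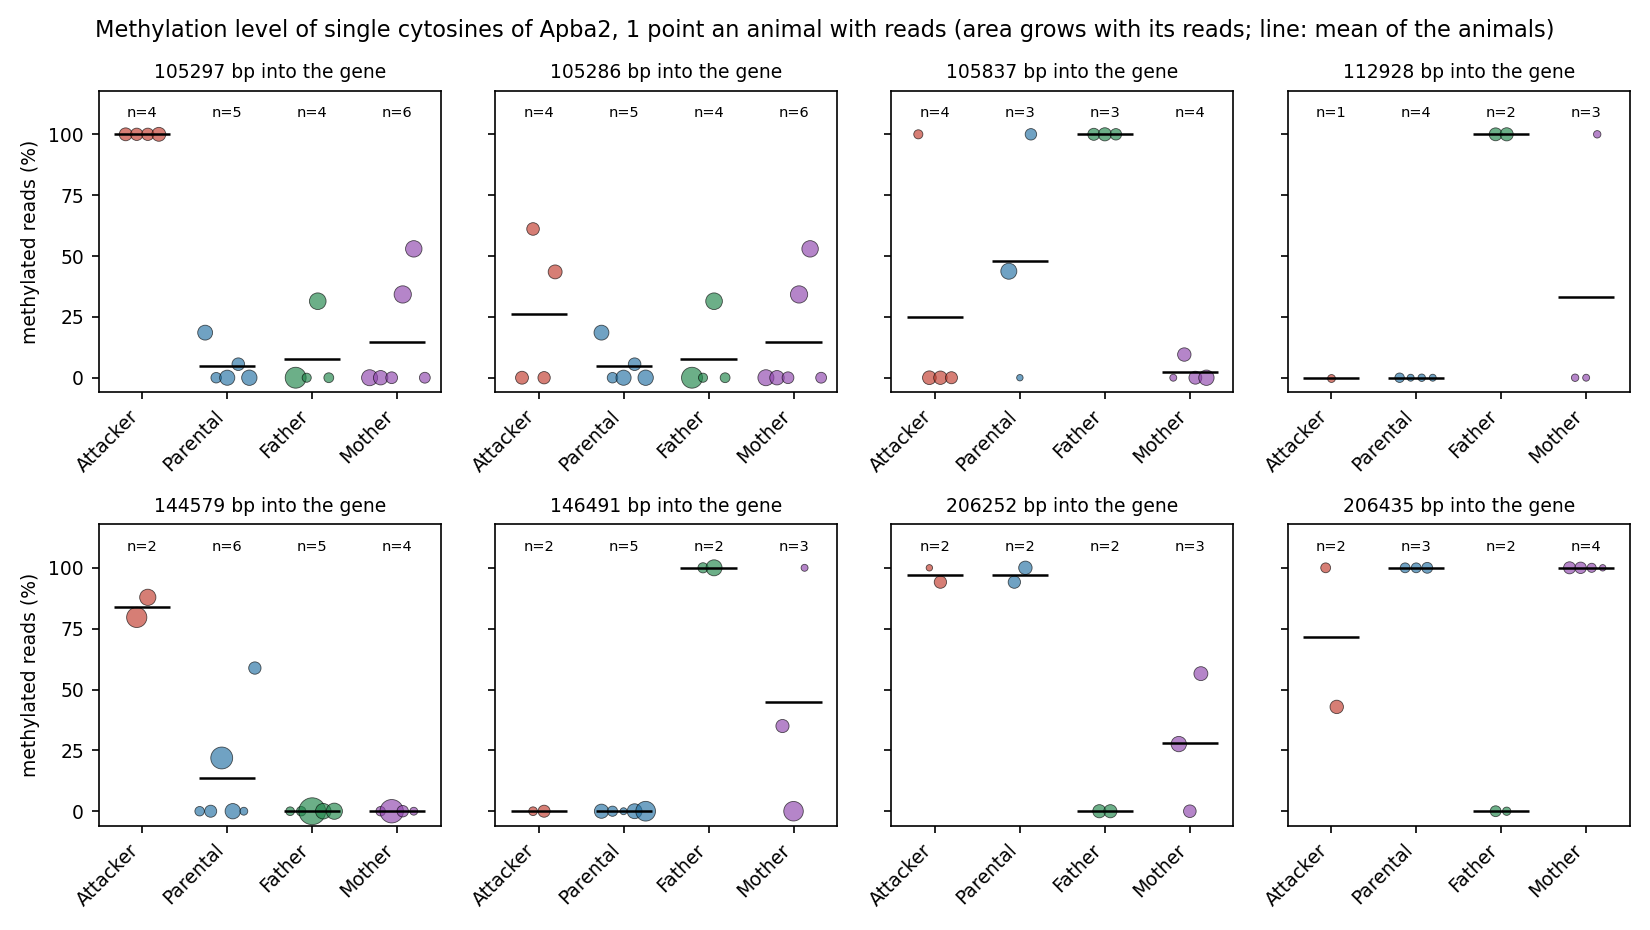
Methylation level in percent of 8 named cytosines of Apba2 in each animal with reads, by group; the area of a point grows with its reads and the line is the group mean. At +105297 the 4 “Attacker” animals are at 100% and the 5 “Parental” at or below 18.5%; at most of the other positions a group is represented by 2 to 4 animals.

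Further DMCs with the smallest p did not pass adjustment. In “Attacker” vs “Father” +165459 had 9 of 9 and 17 of 17 reads methylated in Attackers 2 and 6 against 0 of 11, 0 of 6 and 0 of 12 in Fathers 2, 4 and 5 (80.2 points, SE 22.4, DSS adjusted p = 0.242), and +12780 had 0 of 26 in Attacker 6 alone against 11 of 11 and 31 of 31 in Fathers 1 and 4 (-79.8 points, SE 25, adjusted p = 0.605). In “Parental” vs “Father” +145300 had 0 of 18 and 0 of 1 in Parentals 4 and 5 against 11 of 11 and 13 of 14 in Fathers 1 and 3 (-80.4 points, SE 20.8, adjusted p = 0.0850). In “Father” vs “Mother” +16038 had 8 of 8 and 4 of 4 in Fathers 1 and 4 against 0 of 6 and 0 of 28 in Mothers 1 and 3 (78.4 points, SE 24.1, adjusted p = 0.381). At +105906 Father 4 alone had 0 of 19 against 23 of 23 and 8 of 8 in Mothers 3 and 5 (-79.0 points, SE 24.6, adjusted p = 0.415). At +50906 Father 5 alone had 19 of 19 against 0 of 1 and 0 of 10 in Mothers 2 and 6 (71.9 points, SE 33.2, adjusted p = 1). For +12780 and the last 2, a group was a single animal.

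The other “Attacker” vs “Parental” DMCs among the first 5, listed as a description, were +12525, +144579, +165459 and +12382, with fitted differences of 79.6, 62.1, 76.2 and 75.4 points. At +12525 all reads of Attackers 2, 3 and 6 were methylated (10, 4 and 26 reads) and Parental 6 had 0 of 9. At +12382 Attackers 3 and 6 had 14 of 14 and 11 of 11 and Parental 5 had 0 of 8. Both lie in the highly methylated segment at +12212, and at both the low group was 1 animal.

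Genes of the Mint pathway were counted by the same DMC rule. The family holds Apba1, a neuronal relative, and Apba3, a more widely expressed one. Together they had 2 DMCs (0 hypermethylated) among 402 cytosines tested in “Attacker” vs “Father” (0.498%). They had 10 of 366 in “Parental” vs “Father” (2.73%, 1 hypermethylated and 9 hypomethylated) and 2 of 376 in “Father” vs “Mother” (0.532%, 1 and 1). In “Attacker” vs “Parental” they had 9 of 368 (2.45%, 6 and 3). A list around the amyloid precursor holds 11 genes (App and its relatives, presenilins, Bace1, Apbb and calsyntenin genes). Of these, Apbb1, Clstn2 and Clstn3 had 0 tested cytosines in every comparison, so the counts come from the other genes. The list had 16 DMCs of 1919 (0.834%) in “Attacker” vs “Father” and 21 of 1897 (1.11%) in “Parental” vs “Father”. It had 19 of 1858 (1.02%) in “Father” vs “Mother” and 17 of 1961 (0.867%) in “Attacker” vs “Parental”. The shares of this list lay between 0.834% and 1.11%, beside backgrounds of 0.822% to 1.24%, while that of the family pair ranged more widely on far fewer cytosines.

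Within this list Apbb2, an adaptor that also binds the amyloid precursor tail, is named after its values were seen. It had 10 DMCs among 498 cytosines tested in “Parental” vs “Father” (8 hypermethylated and 2 hypomethylated; background 1.23%) and 11 of 489 in “Father” vs “Mother” (6 and 5; background 1.24%). It had 6 of 521 in “Attacker” vs “Father” (background 0.999%) and 3 of 524 in “Attacker” vs “Parental” (background 0.822%). Adjusted DMCs numbered 0 to 3 for the list in each comparison, and 0 or 1 for the family pair.

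Apba3 could be compared by mean level, over 30 fully covered cytosines, and had 3.03% ± 0.590 in “Attacker”, 3.17% ± 0.156 in “Parental”, 3.19% ± 0.426 in “Father” and 3.22% ± 0.495 in “Mother” (SD, n = 6, 6, 5 and 6). It was not called in any comparison by limma. Apba1 had fewer than 20 fully covered cytosines and was not compared this way.

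Across the 23 animals, the genes whose mean level was most like that of Apba2 among 6814 others were LOC102002212 (Pearson r = 0.666), Stip1, a co-chaperone (r = 0.641), and Idnk, a gluconate kinase (r = 0.621). The median r over all genes was -0.00943 and 0 genes were over 0.7. These values share libraries and depth, and on the Apba2 side rest on levels near 1%, so they are given as a description.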

How the data were processed

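RRBS libraries of 23 prairie voles were analysed. Per the study's methods, the authors trimmed reads, aligned them with Bismark to MicOch1.0 and extracted, for each cytosine, total and methylated read counts; the deposited counts were used as they are, and the 100-bp single-end reads carry no molecular identifiers, so intervals and floors cover counting error only. Groups came from the labels. The cytosines of Apba2 and the gene lists were chosen with earlier results of these data known.

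All cytosines with reads in both groups were fitted with a re-implementation in Python 3.11.15 of the 2-group DSS beta-binomial Wald test, without smoothing. A cytosine was called a DMC where the fitted probability of a difference of less than 15 points was under 0.05, and adjusted DMCs a Benjamini-Hochberg adjusted p under 0.05 over all tested cytosines. Gene (at least 20 fully covered cytosines), cluster and segment levels per animal were fitted with limma 3.58.1 (R 4.3.3) on the arcsine square root scale. Fully covered means at least 10 reads in all 23 animals; clusters join at least 4 such cytosines within 200 bp. Segments were defined after seeing the data. Few animals were compared by exact permutation tests, two-sided. The limma and permutation p-values measure the spread between animals, with 1 library each. In the DSS fit the dispersion of a cytosine is drawn toward a value shared by all cytosines. Where a group has reads in 1 animal, the DSS p-value therefore does not measure the spread between animals of that group. With reads in 2 animals it does so only weakly. No p is given for “Attacker” vs “Parental”, nor at or within 100 bp of the choosing CpG where “Attacker” or “Parental” enters. Named cytosines were the choosing CpG and its neighbours, the 5 DMCs with the smallest Wald p per comparison and the 3 fully covered cytosines with the largest SD. Similar genes were the 3 with the highest r. A list of presynaptic partner genes is not reported here.

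On simulated counts for “Father” vs “Mother” (60000 cytosines, 200 changed), the DMC rule recovered 67 of 100 changes of 30 points and 100 of 100 of 60 points and called 24 unchanged cytosines. With reads in 1 or 2 animals of the smaller group, as in 35 of the 39 Apba2 calls, the rule was not simulated separately. The simulated counts are therefore not read as rates of recovery or of false calls there. On 25623 simulated clusters limma recovered 200 of 200 and called 9 unchanged. Recovery was not given by level, so nothing follows for levels as low as in the Apba2 clusters (means 0.626% and 0.646% over all animals). Alternatives covered coverage minimum, strands, weights, model, replicate block, scale, flanks and animals left out.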

Additional observations from a re-analysis of the deposited data

Results flagged for a closer look

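Among 40 groups of 4 to 6 animals checked at the named cytosines and clusters, 10 held an animal that stood far from the rest of its group by Dixon's criterion. Chance meets it in about 1 in 20 groups of continuous values, but a single animal above 0 in a group otherwise at 0 always does, and 3 of the cytosines were named for their large SD, so 10 is not read against that rate. At +105297 and at +105286, which had identical reads in “Father”, Father 3 had 31.4% where the other “Father” animals with reads were at 0. At +105837 Attacker 1 had 100% against 0 in the other “Attacker” animals (7 reads), and Mother 2 had 9.52% against 0. At +144579 Parental 6 had 58.8%, with the next at 21.9%. At +175673 Mother 6 had 30.6% (next 4.8%) and Parental 5 had 1.01% (others 0). In the dense stretch Mother 5 had 40% at +208661 and Attacker 5 had 47.4% at +208669, with the rest of their groups at 0, and Father 1 had 1.61% over the larger cluster, with the next “Father” at 0.359%.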

How the results depend on the processing

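Counts of DMCs depended most on the coverage minimum and the read weights. Where 4 animals of both groups had to have 10 or more reads, “Attacker” vs “Parental” had 1 DMC in Apba2, the choosing CpG, and each of the other 3 comparisons 0 (adjusted 0 too). Over all such cytosines DMCs numbered 514 of 1266207 in “Attacker” vs “Parental” and 541 to 739 in the others. With weights scaled over animals with reads only, they numbered 23 (“Attacker” vs “Parental”), 33 (“Attacker” vs “Father”), 24 (“Parental” vs “Father”) and 27 (“Father” vs “Mother”), and adjusted DMCs 16, 26, 21 and 22 in that order. The rise was not particular to Apba2. Over all cytosines these weights gave 116389 to 122536 DMCs in the comparisons (84181 to 87617 adjusted), against 22674 to 32430 in the main fit. The arcsine-link model at well-covered cytosines without a block gave 0 in the last 3 comparisons, adjusted DMCs included. Over all well-covered cytosines it called 19815 of 1159332 (“Attacker” vs “Father”), 18999 of 1187448 (“Parental” vs “Father”) and 21838 of 1183211 (“Father” vs “Mother”). With so few well-covered cytosines in the gene, these counts of 0 are not read as a result. In “Attacker” vs “Parental” the model gave 4 DMCs in Apba2 (3 hypermethylated and 1 hypomethylated, 1 adjusted), and 22387 of 1266207 in the series. With strands merged, “Attacker” vs “Father” had 4 adjusted DMCs of 270 (3026 of 2029956 in the series), and “Father” vs “Mother” 1 of 277 (3874 of 1974928). A coverage minimum also leaves fewer cytosines to call. The cause of these shifts was not tested.

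By correlation the replicate numbers gave no clear pairing: 0 of the same-numbered pairs correlated above 0.1 in any comparison. In “Attacker” vs “Parental”, however, pairs 1, 4 and 6 were best matches in both directions (r = 0.0504, 0.0357 and 0.0714), while pairs 2, 3 and 5 were not. In “Parental” vs “Father” pair 4 was too (r = 0.0353), and in the other comparisons no pair was. Whether some animals were paired was not tested further. These correlations do not cover the library-wide share of methylated calls, which tended to rise with replicate number in every group. With the replicate block the arcsine-link model gave 2 DMCs (“Attacker” vs “Father”), 1 (“Parental” vs “Father”) and 0 (“Father” vs “Mother”), with 0 adjusted in each, and 6 in “Attacker” vs “Parental” (1 adjusted). Over all well-covered cytosines, 1159332 to 1266207 in the comparisons, it gave 22843 to 28157 DMCs.

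Leaving out each animal in turn gave 4 to 10 DMCs in “Attacker” vs “Parental” (10 without Parental 5; adjusted 1 to 1), 12 to 17 in “Attacker” vs “Father” (adjusted 1 to 4, with 1 without Attacker 3 or Attacker 4 and 4 without Father 4), 12 to 17 in “Parental” vs “Father” (adjusted 3 to 5) and 6 to 13 in “Father” vs “Mother” (13 without Father 2, Mother 2 or Mother 5, 12 without Father 3, 11 without Mother 4 or Mother 6; adjusted 1 to 3, with 1 without Father 1). Over all cytosines the DMCs of these fits numbered 25575 to 30048, 30378 to 38993, 37442 to 45043 and 37986 to 44059 in that order. The main fit gave 22674, 26680, 32430 and 32349. With each animal left out in turn, the mean level difference ran from -0.133 to 0.0974 points (“Attacker” vs “Parental”), -0.200 to 0.193 (“Attacker” vs “Father”), -0.180 to 0.213 (“Parental” vs “Father”) and -0.507 to -0.115 (“Father” vs “Mother”), and 0 clusters were called in each. The “Father” minus “Mother” difference at +105297 ran from -14.5 to 1.02 points. The mean level also changed sign in “Attacker” vs “Father” with a minimum of 5 reads (0.276 points) and with pooled calls (0.0204 points), in “Parental” vs “Father” with pooled calls (-0.0697 points), and in “Attacker” vs “Parental” with 5 reads (0.0657 points), with pooled calls (0.0901 points) and without Attacker 1, Attacker 6, Parental 4 or Parental 5; in the 3 tested comparisons its adjusted p stayed between 0.942 and 1.00. The pseudocount of 0.5 and the segments were chosen after seeing the data. Depth limits the gene chiefly outside the dense stretch, where few cytosines are read in 4 animals of a group.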
